A study of Mus musculus with 12 samples.

Results

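The genes described here are 10 immediate early transcription factor genes of the Egr, Nr4a and AP-1 families, out of 27179 genes in the count table. They were chosen by name: Egr1, Egr2, Egr3, Nr4a1 and Nr4a3, and the AP-1 genes Fos, Fosb, Jun, Junb and Jund. All 10 had a row in the table under their Entrez identifier. RNA-seq was performed on cells of a single mouse T-cell acute lymphoblastic leukemia (T-ALL), ALL101, taken from spleens of recipient mice. The treated group was 3 mice given doxycycline for 3 days, with GFPmid T-ALL cells sorted, and its controls were 3 untreated mice with GFPhigh T-ALL cells sorted. Whether untreated mouse 3 was sorted like the others is not known here. Both groups carried the Vav-tTA and TRE-GFP-shIkaros transgenes, in which the Vav promoter of blood cells drives a transactivator that is switched off by doxycycline, and the transactivator drives a GFP-linked hairpin against Ikaros. Each RNA was sequenced in 2 runs, which were summed per mouse. All mice carried the 1 leukemia, and no leukemia without the hairpin was given doxycycline here. Restored Ikaros, doxycycline itself and the 2 GFP gates can therefore not be told apart.

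Immediate early genes are transcribed within minutes of a stimulus, without new protein synthesis. In T cells and thymocytes, the Egr zinc-finger factors and the Nr4a orphan nuclear receptors are induced by antigen receptor signals through ERK and calcium, and reporters built on Nr4a1 are used to read out receptor signalling. The AP-1 factors are dimers of Fos and Jun proteins. Their genes also respond to antigen, but rise readily with growth factors, stress kinases and the handling of tissue. The division is one of tendency, since Egr1 and Nr4a1 can also rise when tissue is dissociated.

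Totals ran from 33899095 to 44949303 counts in the doxycycline mice and from 29904744 to 33063390 in the untreated mice. Values are CPM, that is counts scaled to a common library size, with sizes adjusted by trimmed mean of M-values (TMM), and fold changes are from edgeR's quasi-likelihood test with Benjamini-Hochberg adjustment over all 13134 genes tested (SE given, threshold 0.05). Ikzf1, the hairpin's target, was at 1438, 1523 and 1495 CPM in the doxycycline-treated mice and at 153, 149.7 and 159 CPM in the untreated mice, the direction given by the labels. All 6 T-cell markers listed (Cd3e, Cd3d, Cd3g, Cd2, Thy1 and Lck) were detected, with sums of 4767 to 4980 CPM in doxycycline and 4400 to 4458 CPM in untreated mice. The library name of untreated mouse 3 lacks the sort wording of the others, and whether it was sorted alike is not known here.

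Promoters of members that rose and of Jun, which did not pass, are shown first, as RefSeq gives them for GRCm38 (250 bases before to 50 after the annotated start, 5′ to 3′ on the gene's strand). A promoter was held for 8 of the 10 genes, and none for Egr1 or Egr3, which were not searched. The letters were searched on both strands for the CArG box, bound by serum response factor, the MEF2 site, the cAMP response element TGACGTCA, the AP-1 site TGANTCA, the EGR site GCGNGGGCG and the Ikaros core TGGGAA. The last contains the GGAA core of ETS sites. Capitals mark every match.
Egr2, the third annotated start, chr10:67537619-67537918, plus strand: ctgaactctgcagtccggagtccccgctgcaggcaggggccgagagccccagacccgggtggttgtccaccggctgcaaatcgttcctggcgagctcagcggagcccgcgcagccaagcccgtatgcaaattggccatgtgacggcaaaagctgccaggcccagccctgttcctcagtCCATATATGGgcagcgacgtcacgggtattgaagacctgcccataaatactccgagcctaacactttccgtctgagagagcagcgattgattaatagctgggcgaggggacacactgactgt
Nr4a1, chr15:101266596-101266895, plus strand: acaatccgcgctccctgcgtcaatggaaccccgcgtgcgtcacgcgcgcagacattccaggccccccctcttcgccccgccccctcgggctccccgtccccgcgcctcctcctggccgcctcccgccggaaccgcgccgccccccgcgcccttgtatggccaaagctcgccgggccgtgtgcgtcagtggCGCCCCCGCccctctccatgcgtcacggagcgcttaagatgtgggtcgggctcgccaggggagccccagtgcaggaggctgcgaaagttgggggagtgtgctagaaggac
Fos, chr12:85473640-85473939, plus strand: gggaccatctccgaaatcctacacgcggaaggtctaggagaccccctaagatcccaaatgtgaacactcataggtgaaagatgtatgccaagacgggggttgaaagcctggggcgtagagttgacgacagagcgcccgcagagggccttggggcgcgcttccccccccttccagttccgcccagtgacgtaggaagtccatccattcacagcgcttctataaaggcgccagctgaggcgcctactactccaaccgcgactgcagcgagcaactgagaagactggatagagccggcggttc
Jun, chr4:95052173-95052472, minus strand: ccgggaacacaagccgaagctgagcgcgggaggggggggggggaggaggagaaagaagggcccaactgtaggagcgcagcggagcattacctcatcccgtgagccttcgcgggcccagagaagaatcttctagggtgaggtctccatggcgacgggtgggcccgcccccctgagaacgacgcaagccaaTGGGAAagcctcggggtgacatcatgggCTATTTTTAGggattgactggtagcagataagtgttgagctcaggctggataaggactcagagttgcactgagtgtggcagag
The Egr2 stretch holds a CArG box from position -72 to -63 relative to the start, and 4 of its 5 annotated starts had one within their windows. The windows of the last 3 starts overlap and share this box. A CArG box was present in 1.64% of the 32544 distinct promoters searched. The Nr4a1 stretch holds an EGR site on the opposite strand from -60 to -52, a match found in 5.6% of promoters and also in that of Fosb. The Jun stretch holds a MEF2 site (3.16% of promoters) from -33 to -24 and an Ikaros core (25.4%) from -61 to -56, and the Jund window holds an Ikaros core. No letters of the Fos, Junb or Nr4a3 windows matched. Bases outside the windows were not searched, so sites further from the start would be missed. The cAMP response element (1.8% of promoters) and the AP-1 site (7.79%) matched in none of the members' windows. These matches describe letters and are not shown to be bound sites.

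Of the 10 genes, 6 rose after doxycycline and 0 fell (0 also at an unadjusted edgeR p under 0.05, and with DESeq2 or limma-voom), against 24.8% of all tested genes that were higher and 25.2% that were lower. The genes that rose were Egr1, Egr2, Nr4a1, Fos, Junb and Jund. Fosb and Jun did not pass, and Egr3 and Nr4a3 had too few counts for the filter. For the 6 genes that rose, the lowest doxycycline mouse lay above the highest untreated mouse, as for 30.2% of all tested genes. No overlap in the lower direction, which 0 members showed, was found for 30.9%. The counts come from cell populations, in which fewer cells expressing a gene and less RNA per cell cannot be told apart. The 3 tested Egr and Nr4a genes had log2 fold changes of 2.30 to 2.67, and the 3 AP-1 genes that rose had 0.59 to 1.57. Fosb and Jun, the other AP-1 genes, had 0.16 and -0.03. The members were named with earlier results of these data known, so these sizes are a description. A difference between the classes was not tested. A rise of at least 2-fold with an edgeR adjusted p under 0.05, which Egr1, Egr2, Nr4a1 and Fos had, was found for 8.22% of tested genes. With DESeq2, limma-voom, other size factors, either run alone or any 1 mouse left out, the number of members higher was again 6. It was also 6 without both untreated mouse 3 and doxycycline mouse 2.

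**Figure D1:**
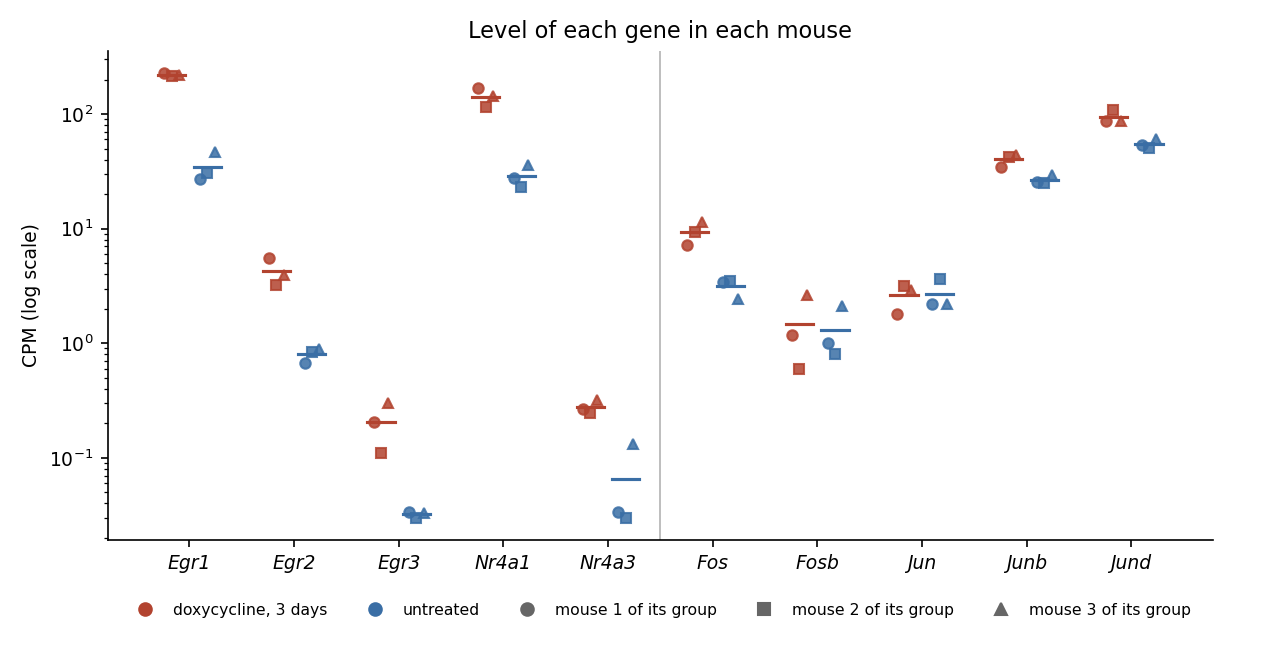
CPM of each gene in each mouse on a log axis, with doxycycline mice (red) left of untreated mice (blue), a symbol per mouse and a bar at the group mean. The doxycycline points of Egr1 lie between 217 and 228 CPM, all above the untreated points at 27.0 to 47.1 CPM, whereas the points of Jun and Fosb overlap between groups.

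Egr1, an activator induced by ERK signalling through serum response factor, was at 228, 217 and 218 CPM in the doxycycline-treated mice and at 27.0, 30.5 and 47.1 CPM in the untreated mice. The groups did not overlap, and untreated mouse 3 was the highest of the controls. Its log2 fold change was 2.67 ± 0.21 (6.34-fold, edgeR adjusted p = 0.00023). The doxycycline mice lay close together, with a coefficient of variation of 2.87%, against 30.9% in the untreated mice. Behind these values stood 7764 to 9775 counts per doxycycline mouse and 804 to 1416 per untreated mouse. Egr1 (Entrez ID 13653) lies on chromosome 18 at 34861207 to 34864956 of GRCm38 (mm10).

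Egr2, which with Egr3 acts in thymocyte selection and T-cell anergy, was far less abundant. It was at 5.50, 3.24 and 3.98 CPM in the doxycycline-treated mice and at 0.671, 0.843 and 0.898 CPM in the untreated mice, from 146 to 187 and from 20 to 28 counts. Every doxycycline mouse was above every untreated mouse, and the log2 fold change was 2.39 ± 0.27 (edgeR adjusted p = 0.00030). Egr2 (Entrez ID 13654), whose promoter with the CArG box is printed above, lies on chromosome 10 at 67534469 to 67542188. Egr3 was near the limit of detection, with 7, 5 and 13 counts in the doxycycline mice and 1 count in each untreated mouse. The summed counts were 25 and 3, a ratio of rates of 6.33 with an exact 95% interval of 1.93 to 32.8 that covers counting error only. In a fit without the filter on low counts, Egr3 had an edgeR adjusted p of 0.0186.

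Nr4a1, encoding Nur77, an orphan nuclear receptor of thymocyte negative selection, was at 168, 115 and 143 CPM in the doxycycline-treated mice. In the untreated mice it was at 27.4, 23.2 and 36.1 CPM. The groups were wide apart, and its log2 fold change was 2.30 ± 0.20 (4.91-fold, edgeR adjusted p = 0.00030). Nr4a1 (Entrez ID 15370) lies on chromosome 15 at 101253902 to 101274795. Nr4a3, encoding the related receptor NOR1, was barely detected, with 9, 11 and 14 counts in the doxycycline mice and 1, 1 and 4 counts in the untreated mice. The ratio of rates was 4.3 (exact 95% interval 1.79 to 12.5, counting error only), and the edgeR adjusted p without the filter was 0.0236. Egr3 and Nr4a3 thus lay in the direction of their larger relatives, at levels of under 1 CPM in every mouse.

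Fos, the partner of Jun in the classical AP-1 dimer, was at 7.17, 9.37 and 11.4 CPM in the doxycycline-treated mice and at 3.45, 3.52 and 2.43 CPM in the untreated mice. The groups did not overlap, and the rise was 1.57 ± 0.22 log2 units (2.97-fold, edgeR adjusted p = 0.00077). Fos (Entrez ID 14281) lies on chromosome 12 at 85473890 to 85477274. Junb, a Jun relative that can restrain proliferation, was at 34.3, 42.6 and 43.8 CPM after doxycycline and at 25.4, 25.0 and 29.6 CPM without it. Its rise was smaller, 0.59 ± 0.12 log2 units (edgeR adjusted p = 0.0034). Jund, the Jun relative that is usually present in resting cells, was at 87.2, 107.7 and 87.9 CPM after doxycycline and at 53.5, 51.0 and 60.2 CPM without it. It rose by 0.78 ± 0.10 log2 units (edgeR adjusted p = 0.00061). Junb (Entrez ID 16477) and Jund (16478) lie on chromosome 8, at 84976909 to 84978748 and 70697739 to 70700616. GENCODE places the antisense gene Gm11175 within Jund. Without a strand setting in the sources used here, reads of that gene and of Jund cannot be separated.

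Jun and Fosb overlapped between the groups. Jun, which forms dimers with Fos and is regulated by the kinase JNK, was at 1.79, 3.17 and 2.90 CPM in the doxycycline-treated mice and at 2.21, 3.61 and 2.20 CPM in the untreated mice. Its log2 difference was -0.03 ± 0.29 (edgeR adjusted p = 0.949), from 61 to 143 counts per mouse in the doxycycline group and 66 to 120 in the untreated group. The antisense gene Junos overlaps Jun, so its level is uncertain. Fosb, a Fos relative, was at 1.18, 0.599 and 2.62 CPM in the doxycycline-treated mice and at 1.01, 0.813 and 2.13 CPM in the untreated mice. Its log2 difference of 0.16 ± 0.59 (edgeR adjusted p = 0.835) had an SE larger than the difference itself. The third mouse of each group held most Fosb. These p-values do not show that the levels were equal, and with SEs of this size a change in Fosb of the size seen in Junb was within the error.

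The order of the genes by level per length differed between the groups. On a scale of CPM per kilobase of the deposited gene length, Egr1 was highest in the doxycycline mice at 71.9 ± 2.06, then Nr4a1 at 57.2 ± 10.7, Jund at 32.7 ± 4.05 and Junb at 21.9 ± 2.83 (SD, n = 3). Adjacent ranges among these 4 levels did not overlap. In the untreated mice Jund was highest at 19.1 ± 1.65, then Junb at 14.5 ± 1.37, Nr4a1 at 11.7 ± 2.65 and Egr1 at 11.3 ± 3.50 CPM per kilobase. There the ranges of Junb, Nr4a1 and Egr1 overlapped, and only Jund stood above its neighbour. Fos came next in both groups, at 3.43 to 5.43 CPM per kilobase in doxycycline-treated and 1.16 to 1.68 in untreated mice. Egr2 was at 1.43 ± 0.39 in doxycycline mice, above Jun and Fosb, and at 0.271 ± 0.040 in untreated mice, below Jun and overlapping Fosb. Nr4a3 and Egr3 were the lowest in both groups and overlapped each other.

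**Figure D2:**
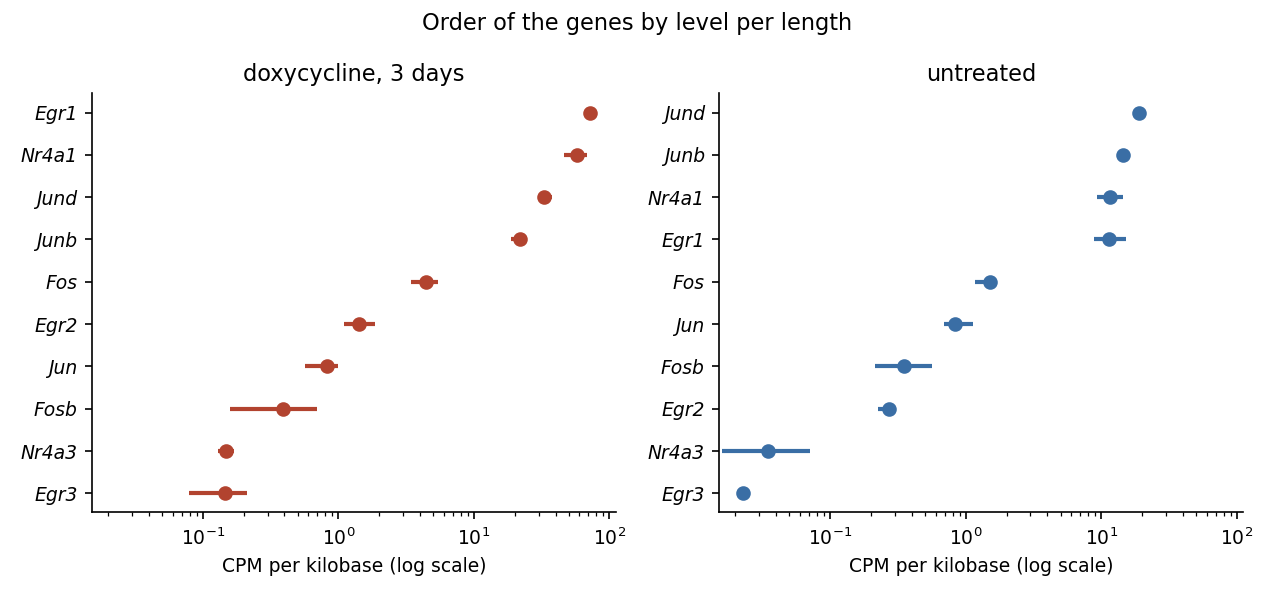
Mean level of each gene in CPM per kilobase (point) with the range over 3 mice (line), on a log axis, ordered from the highest at the top within each group, doxycycline on the left. Egr1 is at the top after doxycycline at 71.9 CPM per kilobase, and below Jund, Junb and Nr4a1 in the untreated mice at 11.3.

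Summed over the 5 Egr and Nr4a genes, the level was 144, 118 and 130.1 CPM per kilobase in the doxycycline mice and 20.1, 19.6 and 30.3 in the untreated mice. Egr1 and Nr4a1 made up at least 98.4% of this sum in every mouse. Summed over the 5 AP-1 genes it was 53.2, 66.2 and 61.4 CPM per kilobase in the doxycycline mice and 35.0, 34.3 and 39.4 in the untreated mice, with 88.5% to 93.9% from Jund and Junb. The ratio of the sums was 2.71, 1.79 and 2.12 in the doxycycline mice and 0.574, 0.571 and 0.769 in the untreated mice. These sums are a description and carry no test, since the members were named with earlier results known.

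Egr1 was set against Fos as 1 pair for the 2 kinds of gene. Library size cancels in their ratio, apart from the small constant added to each. The log2 ratio of Egr1 to Fos, with 0.5 CPM added to each, was 4.90, 4.46 and 4.2 in the doxycycline mice and 2.80, 2.94 and 4.02 in the untreated mice. All doxycycline mice were higher, but untreated mouse 3 lay close to doxycycline mouse 3. The difference of means was 1.27 (4.52 ± 0.35 in doxycycline-treated and 3.25 ± 0.67 in untreated mice, SD, n = 3 each), with a two-sided exact permutation p = 0.1, the smallest that 3 against 3 mice allow. The pair came from members named with earlier results known, so this p is a description and no conclusion is drawn from it. Within the doxycycline group Nr4a1 was lowest in mouse 2, and Fos and Junb were lowest in mouse 1, while Egr1 was nearly level in mice 2 and 3. Among the untreated mice, mouse 3 was highest for Egr1 and Nr4a1. These orders within a group carry no test.

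**Figure D3:**
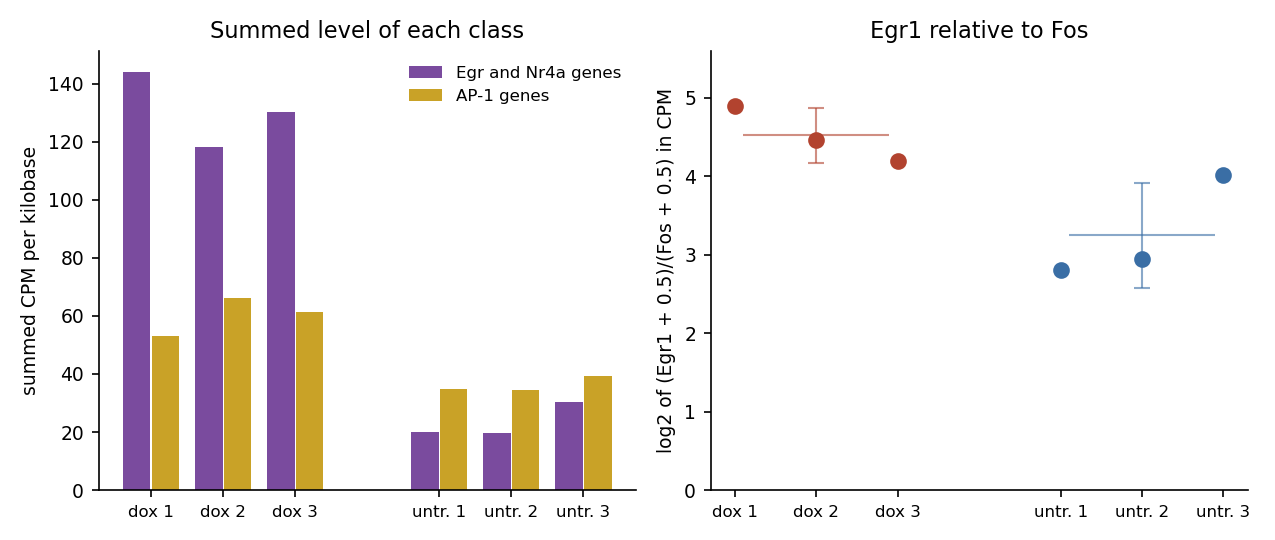
Left, summed CPM per kilobase of the 5 Egr and Nr4a genes (purple) and the 5 AP-1 genes (yellow) in each mouse, doxycycline mice first. Right, log2 ratio of Egr1 to Fos in each mouse, with the group mean and SD: the doxycycline mice lie between 4.2 and 4.90 and the untreated mice between 2.80 and 4.02.

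Other genes of each kind were taken from lists made with earlier results of these data known, so their counts are descriptions. Of 17 tested genes that respond to antigen receptor signals, 11 (64.7%) rose and 1 (5.88%) fell, against 24.8% and 25.2% of all tested genes. The median log2 fold change was 0.68, against -0.0037 over all tested genes. Tnfrsf9, counted among the 11 and named after its values were seen, was at 0.412, 0.422 and 0.437 CPM in doxycycline mice. In untreated mice it was at 0.0671, 0 and 0 CPM, so it met the count filter through the doxycycline mice only. With a filter of over 1 CPM in at least 3 mice, 10 of 16 tested genes rose and 1 fell. Cd69, an early activation antigen, was at 29.1, 13.2 and 23.7 CPM in doxycycline mice and at 1.71, 2.56 and 2.03 CPM in untreated mice (edgeR adjusted p = 0.00037). Cd5, a surface inhibitor whose level tracks receptor signal strength in thymocytes, was at 295, 217 and 247 CPM in doxycycline mice and at 99.6, 87.2 and 84.2 CPM in untreated mice (edgeR adjusted p = 0.00010). Nab2, a corepressor that binds Egr proteins and is itself induced by them, rose by 1.53 ± 0.17 log2 units. Ifrd1, named after its values were seen, was the gene of the list that fell, by 0.76 ± 0.18 log2 units (edgeR adjusted p = 0.0115).

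Genes of the handling and stress kind moved both ways. Of 24 tested members of that list, 4 (16.7%) rose and 6 (25.0%) fell, shares near or below those over all genes, and the median log2 fold change was 0.12. Zfp36, encoding tristetraprolin, which marks short-lived messages for decay, had the largest rise that passed. It was at 77.1, 114.7 and 69.3 CPM in doxycycline mice and at 18.6, 18.2 and 24.0 CPM in untreated mice, and rose by 2.10 ± 0.22 log2 units (edgeR adjusted p = 0.00060). Nfkbia, encoding the NF-kappaB inhibitor alpha, rose by 0.51 ± 0.09 log2 units. Of the 8 tested heat shock genes in the list, 5 fell and the other 3 did not pass. Of the 16 other tested genes of the list, 4 rose and 1 fell. Over all tested genes, 24.8% were higher and 25.2% lower. Those that fell included Hspe1, a mitochondrial co-chaperonin gene, by 0.76 ± 0.14, and Hsp90aa1, encoding an inducible HSP90, by 0.67 ± 0.15 log2 units (edgeR adjusted p = 0.0027 and 0.0074). Hspa1a and Hspa1b are near-identical copies, so their counts are uncertain. Ier2, an immediate early gene named after its values were seen, was at 52.2, 59.6 and 60.6 CPM in doxycycline mice and at 52.1, 53.0 and 52.1 CPM in untreated mice, and did not pass (edgeR adjusted p = 0.179). Atf3, a stress-induced AP-1 relative, had under 0.1 CPM in every mouse and was not tested.

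**Figure D4:**
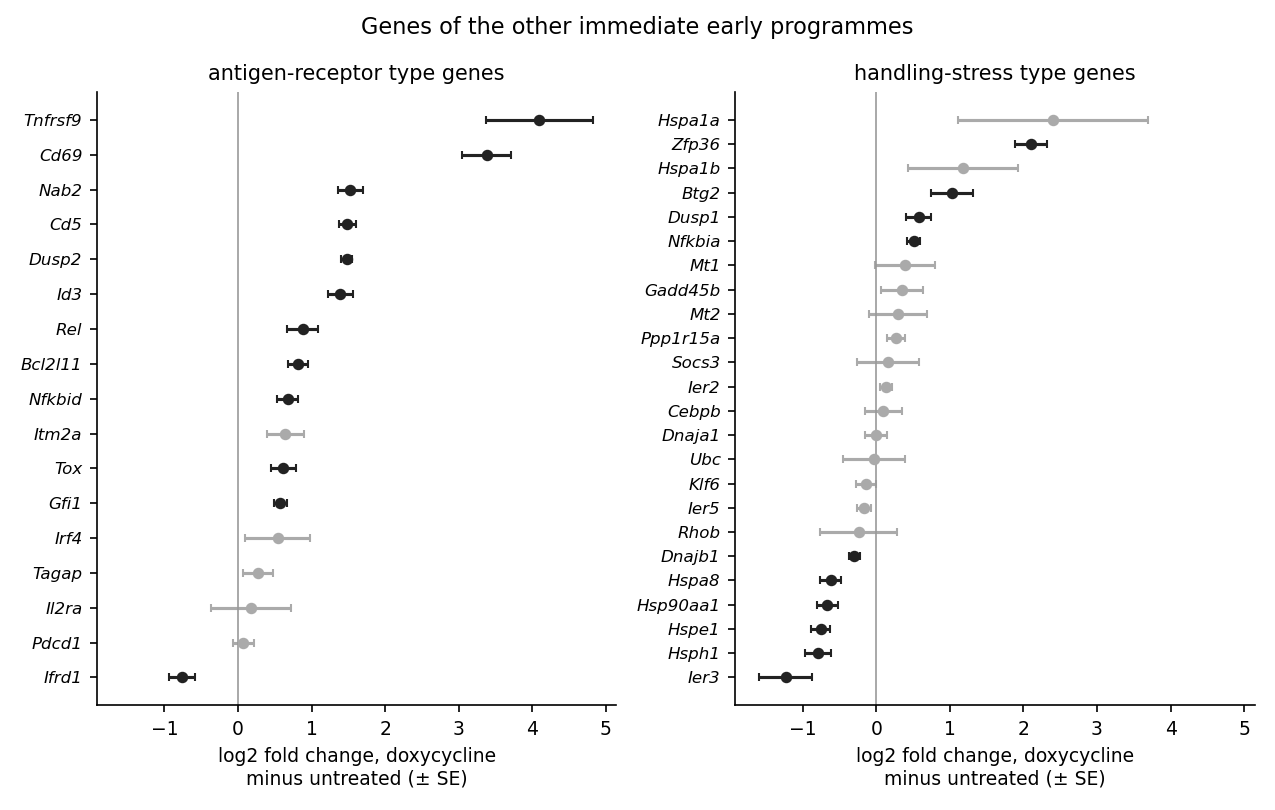
Log2 fold change (doxycycline minus untreated, ± SE) of each tested gene of the antigen-receptor list (left) and the handling-stress list (right), black where the edgeR adjusted p passed and grey where it did not. On the left 11 genes passed above 0 and 1 below, and on the right 4 passed above and 6 below.

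Of 12 other members of the Egr, Nr4a and AP-1 families and their bZIP partners, 6 were tested, of which 2 (33.3%) rose and 1 (16.7%) fell, shares near the 24.8% and 25.2% over all tested genes. Batf, a bZIP partner of Jun proteins in lymphocytes, was at 9.06, 8.37 and 9.20 CPM in doxycycline mice and at 2.58, 2.26 and 4.22 CPM in untreated mice, a rise of 1.55 ± 0.23 log2 units (edgeR adjusted p = 0.0010). Jdp2, which dimerizes with Jun and represses AP-1 sites, rose by 0.58 ± 0.15 log2 units, and the small Maf gene Mafk fell by 0.47 ± 0.09 (edgeR adjusted p = 0.0147 and 0.0033). Without untreated mouse 1 or untreated mouse 2, 1 gene rose in place of 2, and with no filter on low counts 2 fell. Among the relatives not tested, Egr4 and Nr4a2 were under 0.1 CPM in every mouse.

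Genes upstream of the immediate early response rose more often than they fell, mostly by small amounts. Of 31 tested genes, 16 (51.6%) rose and 2 (6.45%) fell, with a median log2 fold change of 0.22. Over all tested genes, 24.8% were higher and 25.2% lower, with a median of -0.0037. The list held genes of the ERK, calcium and serum response factor route, and also Creb1, Crem and Atf1. It further held the stress kinase genes Mapk8, Mapk9 and Mapk14, so it is not limited to the antigen receptor route. Mapk8 rose by 0.31 ± 0.09 log2 units (edgeR adjusted p = 0.016), and Mapk9 and Mapk14 did not pass. Rasgrp1, the Ras activator of thymocyte receptor signalling, was at 811, 566 and 689 CPM in doxycycline mice and at 369, 338 and 298 CPM in untreated mice, a rise of 1.04 ± 0.14 log2 units (edgeR adjusted p = 0.00082). Elk4 and Mrtfa, both cofactors of serum response factor, rose by 0.68 ± 0.08 and 0.77 ± 0.08 log2 units, and Rps6ka5, encoding the chromatin kinase MSK1, by 0.63 ± 0.10. Without untreated mouse 1 or untreated mouse 2, 11 genes rose in place of 16, the lowest number over the alternatives. Over all tested genes, 2596 and 2417 were then higher, in place of 3255. Without untreated mouse 2, or without untreated mouse 3 and doxycycline mouse 2, 1 gene fell in place of 2.

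Genes that restrain the response also rose more often than they fell. Of 15 feedback genes, 10 (66.7%) rose and 2 (13.3%) fell, against 24.8% and 25.2% of all tested genes, with a median log2 fold change of 0.75. Nab2, Zfp36, Dusp1 and Dusp2 of this list also stand in the lists above. The phosphatase genes Dusp2, Dusp5 and Dusp6, whose products switch off MAP kinases, rose by 1.48 ± 0.07, 1.23 ± 0.13 and 1.30 ± 0.16 log2 units. Spry2, a Sprouty inhibitor of receptor tyrosine kinase signalling, was at 0.617, 0.533 and 0.828 CPM in doxycycline mice and at 4.43, 7.68 and 5.75 CPM in untreated mice, and fell by 3.17 ± 0.28 log2 units (edgeR adjusted p = 0.00011). Without untreated mouse 1, 1 feedback gene fell in place of 2.

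By the root mean square distance between centred log2 CPM profiles over the 6 mice, among 9906 other genes with a mean of at least 5 CPM, Tspoap1 lay nearest to Egr1 at 0.125 log2 units. It was at 67.4, 69.0 and 64.8 CPM in doxycycline mice and at 9.96, 10.8 and 16.3 CPM in untreated mice. P2rx7, encoding an ATP-gated channel, followed at 0.159, then Cd52, Bicdl1 and Hsd11b1 at up to 0.25. Nr4a1 had rank 10 at 0.282, and Fos, Jund and Junb were at 0.742, 0.988 and 1.08. Nearest to Fos were Izumo1r at 0.245, Gem, Hmox1, Cfp and the phosphatase gene Dusp2 at 0.269. Among the members compared, Jund was nearest to Fos at 0.498. Egr2, Egr3, Nr4a3, Jun and Fosb had means under 5 CPM and were not compared with Egr1 or Fos.

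Markers of other cells that a spleen sample could hold were set beside these results. The 6 B-cell markers were under 1 CPM in every mouse, with Pax5 and Blk at 0, and the 4 NK-cell markers were likewise under 1 CPM. The 8 myeloid markers summed to 63.6 to 84.3 CPM in doxycycline mice and 22.5 to 40.9 CPM in untreated mice, with 3 higher (Itgam, Adgre1 and Csf1r) and 3 lower (S100a8, S100a9 and Mpo). The 5 erythroid markers in the table summed to 62.1 to 77.0 CPM in doxycycline mice and to 8.85, 4.49 and 43.1 CPM in untreated mice. Untreated mouse 3, with the highest erythroid sum of the controls, also had the highest Egr1 and Nr4a1. Its myeloid sum (22.5 CPM) and its Fos (2.43 CPM) were the lowest of the controls. These values come from 1 mouse, and no link between them was tested. Hba-a1 and Hba-a2 are near-identical copies. The 6 stromal, endothelial and platelet markers summed to 336 to 350.1 CPM in doxycycline mice and 233 to 262 CPM in untreated mice. Most of this was Pecam1 and Col1a2. Mean Col1a1 was only 8.55 CPM in doxycycline mice and 4.38 CPM in untreated mice, against 130.5 and 108 CPM for Col1a2. Cdh5, Pf4 and Ppbp were under 1 CPM. The part of these cells in the changes of the immediate early genes was not tested. Without untreated mouse 3, the log2 fold change of Egr1 was 2.94. The untreated mice then left had erythroid sums of 8.85 and 4.49 CPM, so this fit does not test the part of these cells.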

How the data were processed

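Gene counts of 12 libraries (2 sequencing runs for each of 6 mice) were analysed. What the authors deposited are raw counts for each Entrez gene identifier, together with a gene length. CASAVA 1.8.1, featureCounts and the mm10 build are named, per the submitters' processing notes. The aligner, the gene models, the handling of multi-mapped reads and the use of strand were not given in the sources used here. The whole-series table equalled the per-library tables in 12 of 12 libraries.

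Runs were summed per mouse. At these depths 1 CPM is worth 29.9 to 45.0 counts. Where no read was counted, up to 0.0667 to 0.10 CPM (3 counts) is allowed. Symbols and promoters came from RefSeq tables of GRCm38, with 93% of identifiers matched. edgeR 4.0.16 (R 4.3.3) was used with filterByExpr, TMM and robust fitting of its quasi-likelihood model. SE was obtained from the F statistic, as |log2 fold change|/√F. Alternatives were DESeq2 1.42.0, limma-voom (limma 3.58.1), other size factors and filters, single runs, the replicate number as a block and mice left out. The ratio of Egr1 to Fos was tested by exact permutation (scipy 1.17.1). The fits were tested on simulated data with known changes.

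The members and gene lists were chosen with earlier results of these data known. Named genes were all members, up to 4 genes with the smallest adjusted p per list, the 5 genes nearest to Egr1 and to Fos, and Ikzf1. Members of marker lists are named to identify the lists. Ifrd1, Tnfrsf9, Ier2, Egr4, Nr4a2, Atf3, Hspa1a and Hspa1b were named after their values were seen. So were Itm2a, Irf4, Il2ra, Pdcd1, Tagap, Creb1, Crem, Atf1, Mapk8, Mapk9 and Mapk14.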

Additional observations from a re-analysis of the deposited data

How the results depend on the processing

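The number of members higher after doxycycline was 6 under 16 of 17 alternatives, and 8 with no filter on low counts, where Egr3 and Nr4a3 also passed. The number lower was 0 in each. With the replicate number as a block, the members higher and lower were 6 and 0, and 6259 of all genes passed, against 6571 without it. The numbers share no stated origin, and the deviations of same-numbered mice from their group means had correlations of 0.156, -0.0116 and -0.103, so they were not taken as pairs. Directions of Egr1, Egr2, Nr4a1, Fos, Junb and Jund held and passed in all alternatives, with a highest edgeR, DESeq2 or limma adjusted p of 0.0176, for Junb. Jun and Fosb, which did not pass in any alternative, changed sign: Jun was at 0.066 with run 2 only, and from -0.17 to 0.25 with 1 mouse left out, and Fosb from -0.57 to 0.69. Without both untreated mouse 3 and doxycycline mouse 2, the log2 difference was 1.09 for Fosb (edgeR adjusted p = 0.0515) and -0.30 for Jun (edgeR adjusted p = 0.466). The difference in the log2 ratio of Egr1 to Fos ran from 1.04 to 1.65 with 1 mouse left out, where the smallest p allowed is 0.2, and was 1.17 and 1.36 with 0.1 or 1 CPM added. The cause of these shifts was not tested. Depth limits Egr3 and Nr4a3, with at most 14 counts per mouse. Counts of the gene lists were recomputed under the same alternatives after the data had been seen.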

Other observations

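Within the doxycycline group, mouse 2 stood apart in Hspa1a, an inducible HSP70 gene, at 2.80 CPM, against 0.0882 and 0.345 CPM in the other doxycycline-treated mice and 0.134 to 0.333 CPM in the untreated mice. This gene did not pass between the groups (edgeR adjusted p = 0.172), shares near-identical sequence with Hspa1b, and was named after its values were seen. Over both runs the members' values were steady: for 36 values with at least 100 counts, the ratio of run 1 to run 2 lay between 0.765 and 1.32.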
